A study of Mus musculus with 16 samples.

Results

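Wound cytokine genes were followed in skin wounds of diabetic and wild-type mice. The 10 genes were Il10, Il6, Tnf, Il17a, Osm, Lif, Il19, Il20, Il24 and Csf3. They were chosen by name as cytokines of wound inflammation, with earlier results of these data known. Their 11 probes were among 39429 probes and 20832 named genes of an Agilent mouse expression array. RNA from whole-wound homogenate, with the intact skin around the wound, was labelled with Cy3 and hybridized to 16 single-colour arrays, 2 for each of 8 groups. The db/db groups were female C57BLKS/J mice homozygous for the db allele of the leptin receptor gene Lepr, 10 weeks old, and the WT group was female C57BL/6J mice of 10 to 12 weeks. Genotype and strain therefore cannot be told apart in any comparison with the WT group. Wounds of the db/db and WT groups had no topical treatment, the db/db + estrogen group received 0.75 micrograms of estradiol benzoate per g of body weight per day in sesame oil on the wound, and the db/db + vehicle group received sesame oil. All mice had 2 full-thickness dorsal wounds of 4 mm under a dressing, and wounds were labelled day 7 or day 14 after wounding. The array does not resolve the db mutation, so no probe checked the genotype.

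The day labels carry a limit that applies to every value. Fold changes printed by the study for the db/db group against the WT group matched the arrays of the opposite day label and not those of the same label. That match concerns the printed fold changes alone and does not show that the labels are wrong. Other measurements of the study, its vessel staining for CD31 among them, were not set against the labels here. Values of vessel marker genes by labelled day are given with the marker lists below. The labels were kept here as deposited, and each day is called a labelled day. All arrays of labelled day 7 were scanned on a different day from those of labelled day 14, so labelled day and scan cannot be told apart.

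These cytokines carry signals between white blood cells, keratinocytes and fibroblasts of a wound. Tnf, made largely by macrophages, acts through NF-kB. Il6, Osm and Lif share the receptor chain gp130 and act through STAT3, as does Il10, which restrains macrophages. Il19, Il20 and Il24 belong to the Il10 family and act mainly on keratinocytes. Il17a, from T cells, makes epithelial cells release neutrophil-attracting chemokines, and Csf3 (G-CSF) drives the production and survival of neutrophils. In db/db mice, which become obese and diabetic, wound closure is slow and the inflammatory phase is prolonged.

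Promoter sequence is shown for Il6 and Il19, because Il6 was called in 4 of the 12 comparisons between groups of the same labelled day, each on labelled day 7 and none by adjusted p, and its window held matches to several inflammatory motifs, and because the Il19 window was the only one of the 6 found that held the STAT motif. RefSeq windows of the 250 bases before the gene start (build GRCm38.p6) were found for 6 of the 10 genes, namely Il17a, Il19, Il20, Il6, Lif and Tnf. Motifs searched on both strands were TTCNNNGAA (STAT), TGANTCA (AP-1), TTGCNNAA (C/EBP) and, for NF-kB, GGG followed by any 2 bases and then TTTCC. Capitals mark matches. The Il6 window lies at chr5:30012864-30013113 on the plus strand, and the Il19 stretch at chr1:130940302-130940365 on the minus strand.
Il6: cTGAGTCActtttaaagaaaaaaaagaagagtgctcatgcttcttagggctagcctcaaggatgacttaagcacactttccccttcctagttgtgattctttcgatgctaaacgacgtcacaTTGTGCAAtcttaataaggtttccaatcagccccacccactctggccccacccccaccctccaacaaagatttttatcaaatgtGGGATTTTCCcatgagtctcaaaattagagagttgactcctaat
Il19: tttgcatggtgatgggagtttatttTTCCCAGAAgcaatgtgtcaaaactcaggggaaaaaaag
In the Il6 window the AP-1 match began 249 bases before the gene start, the C/EBP match 128 bases and the NF-kB match 44 bases before it. In the Il19 window the STAT match began 225 bases before the start. Il17a and Lif each held 1 AP-1 match, and Tnf and Il20 held none of these letters. Of 32851 promoter windows of the same length, 7.02% held the STAT motif, 6.75% the AP-1 motif, 1.41% the NF-kB motif and 9.56% the C/EBP motif. A match describes letters in the window and is not evidence that a factor binds there.

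Levels are given as the log2 scaled signal, the log2 of the scanner's processed signal minus the log2 of that array's 75th percentile, so that 0 is the 75th percentile of an array. A probe was tested in a comparison if at least 1 of the groups had it well above background on each of its 2 arrays. A gene was counted as higher or lower where limma gave an unadjusted two-sided p below 0.05 with a fold change over 2, the rule that the study also applied. Every adjusted p is limma's after Benjamini-Hochberg adjustment over all probes tested. The smallest p that exact permutation allows for 2 arrays against 2 is 0.333, so each test rests on the spread shared over 16 arrays with 8 residual degrees of freedom. In bulk wound RNA, fewer cells of a type and less RNA per cell cannot be told apart. Within-slide values compare 1 array with 1 array on slide 1 and on slide 2, which held replicates 1 and 2 of every group of labelled day 7. Those of slide 3, for labelled day 14, compare 1 treated array with the mean of 2 db/db arrays. On labelled day 14 both untreated db/db arrays lay on slide 3 and both WT arrays on slide 4. Untreated db/db against WT on that labelled day therefore also sets slide against slide, as does any change between labelled days that uses it.

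**Figure D1:**
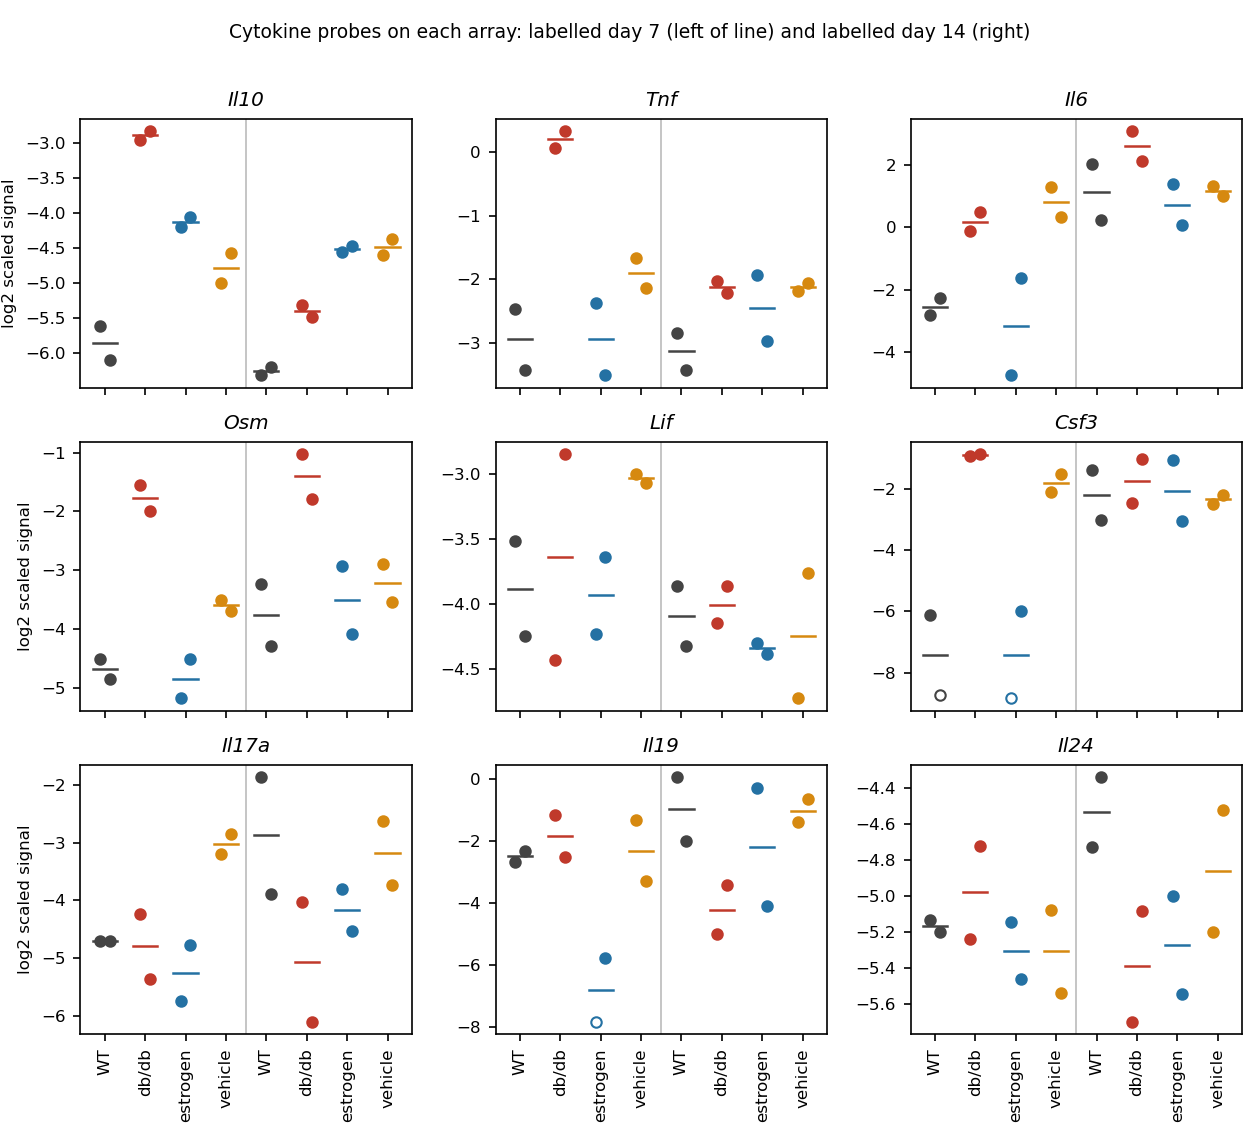
Log2 scaled signal of 9 cytokine genes on each of 16 arrays, with a panel per gene, each point an array, each bar the mean of 2 arrays and open points not well above background. On labelled day 7, Il10, Tnf, Osm and Csf3 stood higher in both db/db arrays than in every array of the WT, estrogen and vehicle groups. For Csf3, 1 WT array and 1 estrogen array were not well above background. The share of all probes with this order was not counted.

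Il10, which restrains inflammatory macrophages, was higher in untreated db/db wounds than in any other group on labelled day 7. Its log2 scaled signal was -5.62 and -6.10 in the WT group, -2.96 and -2.83 in the db/db group, -4.20 and -4.05 in the db/db + estrogen group and -5.00 and -4.57 in the db/db + vehicle group. None of these groups overlapped. Untreated db/db wounds exceeded WT wounds by 2.97 (SE 0.20), which is 7.82-fold, with an adjusted p of 6.46e-05, and by 2.66 and 3.27 within slides. Compared with untreated db/db wounds, Il10 was lower with estrogen (-1.24, adjusted p = 0.00715, -1.24 and -1.23 within slides) and with vehicle (-1.89, adjusted p = 0.0174, -2.04 and -1.74 within slides). The difference with estrogen was -0.82, under 2-fold, when the background was corrected by normexp. Estrogen wounds stood 0.66 above vehicle wounds, which was under 2-fold (adjusted p = 0.101).

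The order of the groups was another one on labelled day 14. Il10 had a log2 scaled signal of -6.32 and -6.20 in the WT group, -5.31 and -5.49 in the db/db group, -4.55 and -4.47 in the db/db + estrogen group and -4.60 and -4.37 in the db/db + vehicle group. Both treated groups now stood above the untreated db/db group with no overlap, and their own arrays overlapped. Untreated db/db wounds exceeded WT wounds by 0.86, under 2-fold, with an adjusted p of 0.0165, and passed the fold limit under quantile normalization (1.53) and with the slide as a fixed block (1.02). Estrogen and vehicle wounds exceeded untreated db/db wounds by 0.89 (adjusted p = 0.181) and 0.91 (adjusted p = 0.0954), the latter passing 2-fold without db/db replicate 1 (1.00) or vehicle replicate 1 (1.03). Estrogen and vehicle wounds differed by -0.03, with a 95% interval of -0.47 to 0.42.

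The change in order of Il10 was tested directly. Its db/db against WT difference was larger on labelled day 7 than on labelled day 14 by 2.11 (SE 0.28, adjusted p = 0.0195), where 9.39% of all probes had such a change over 2-fold at an unadjusted p below 0.05 and 0.693% an adjusted p below 0.05. Its estrogen against db/db difference moved by -2.12 (adjusted p = 0.0395), where those shares were 6.27% and 0.0953%. The same change for vehicle was -2.81 and had an adjusted p of 0.0535, with shares of 2.81% and 0%. At the unadjusted p and over 2-fold, Tnf (2.14), Csf3 (6.07) and Il24 (1.04) also passed in the first, Tnf (-2.80), Csf3 (-6.20) and Il19 (-6.97) in the second and Tnf (-2.10) in the third, those of Csf3 and Il19 resting partly on dim arrays. All 3 changes rest on the same db/db arrays, and the first also sets slide 3 against slide 4 on labelled day 14.

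Tnf, an activator of NF-kB in wound cells, was also highest in untreated db/db wounds of labelled day 7. In log2 scaled signal it was -2.46 and -3.44 in the WT group, 0.07 and 0.34 in the db/db group, -2.37 and -3.52 in the db/db + estrogen group and -1.67 and -2.13 in the db/db + vehicle group. The db/db arrays stood above all 6 others of that labelled day, while estrogen arrays overlapped WT arrays. The level in untreated db/db wounds exceeded that in WT wounds by 3.15 (SE 0.46, 8.89-fold, adjusted p = 0.00338), and by 2.53 and 3.77 within slides. Compared with untreated db/db wounds, Tnf was lower with estrogen (-3.14, adjusted p = 0.00509, -2.44 and -3.85 within slides) and with vehicle (-2.10, adjusted p = 0.113, -1.74 and -2.47 within slides). Estrogen wounds were also lower than vehicle wounds, by -1.04 (adjusted p = 0.237, -0.70 and -1.38 within slides). That last call was lost under normexp (-0.84), with the deposited ratios, in a fit of only the 4 arrays, with the slide as a random block, without vehicle replicate 1 (-0.81), without vehicle replicate 2 (-1.27) and without estrogen replicate 2 (-0.47).

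Tnf on labelled day 14 had a log2 scaled signal of -2.84 and -3.43 in the WT group, -2.02 and -2.21 in the db/db group, -1.94 and -2.98 in the db/db + estrogen group and -2.18 and -2.06 in the db/db + vehicle group. The db/db and WT arrays did not overlap, and their difference was 1.02 (adjusted p = 0.15), which did not pass the test. It passed under quantile normalization (1.28) and without WT replicate 1 (1.31), among others. Within the db/db group, Tnf was higher on labelled day 7 than on labelled day 14 by 2.32 (adjusted p = 0.0134).

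Il6, the main gp130 cytokine of acute inflammation, was low in WT and estrogen-treated wounds of labelled day 7 and high in the other groups. On its arrays the log2 scaled signal was -2.83 and -2.27 in the WT group, -0.14 and 0.48 in the db/db group, -4.74 and -1.62 in the db/db + estrogen group and 1.27 and 0.33 in the db/db + vehicle group. The arrays of the db/db and vehicle groups overlapped each other and stood above all WT and estrogen arrays. Il6 was higher in db/db than in WT wounds by 2.72 (SE 0.94, adjusted p = 0.0851), and by 2.69 and 2.75 within slides. This call was lost without WT replicate 1 (2.44) and without db/db replicate 2 (2.41). Estrogen wounds were lower than untreated db/db wounds (-3.35, adjusted p = 0.0694, -4.60 and -2.09 within slides) and lower than vehicle wounds (-3.98, 15.8-fold, adjusted p = 0.0521, -6.02 and -1.95 within slides). The estrogen replicates lay 3.13 apart, with replicate 1 the lower, and without it the difference from untreated db/db wounds was -1.78 and did not pass. The size of the difference from vehicle wounds also rests on replicate 1, as it was -1.95 within slide 2, which held replicate 2.

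All groups had Il6 well above background on labelled day 14. It had a log2 scaled signal of 2.02 and 0.21 in the WT group, 3.08 and 2.12 in the db/db group, 1.36 and 0.08 in the db/db + estrogen group and 1.32 and 1.00 in the db/db + vehicle group. The db/db arrays stood above all others, but no difference from them passed the test, the largest being that of estrogen wounds at -1.88 (adjusted p = 0.627). The difference of estrogen wounds passed under normexp (-1.88), with the replicate block and in a fit of only the 4 arrays compared. That of vehicle wounds (-1.43) also passed in a fit of only the 4 arrays compared. Within the estrogen group, Il6 was lower on labelled day 7 than on labelled day 14 (-3.90, adjusted p = 0.0289).

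Osm, a gp130 cytokine released by neutrophils and macrophages, was higher in untreated db/db than in WT wounds on both labelled days. Its log2 scaled signal on labelled day 7 was -4.50 and -4.85 in the WT group, -1.55 and -1.99 in the db/db group, -5.17 and -4.50 in the db/db + estrogen group and -3.50 and -3.69 in the db/db + vehicle group. For labelled day 14 the values were -3.23 and -4.28 in the WT group, -1.03 and -1.78 in the db/db group, -2.93 and -4.08 in the db/db + estrogen group and -2.90 and -3.53 in the db/db + vehicle group. The db/db arrays stood above all other arrays of the same labelled day. Osm exceeded its WT level by 2.90 (SE 0.47, adjusted p = 0.00529) on labelled day 7, by 2.96 and 2.85 within slides, and by 2.35 (SE 0.47, adjusted p = 0.00946) on labelled day 14. The change of 0.56 between the labelled days had an adjusted p of 0.814.

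Both treatments went with lower Osm than in untreated db/db wounds on both labelled days. Estrogen wounds differed by -3.07 (adjusted p = 0.00609, -3.63 and -2.51 within slides) on labelled day 7 and by -2.10 (adjusted p = 0.182, -1.52 within slide 3) on labelled day 14. Vehicle wounds differed by -1.82 (adjusted p = 0.153, -1.95 and -1.69 within slides) and by -1.81 (adjusted p = 0.127, -1.49 within slide 3). These comparisons share the same db/db arrays. Estrogen wounds were lower in Osm than vehicle wounds on labelled day 7 by -1.25 (adjusted p = 0.173, -1.68 and -0.82 within slides), a call lost without estrogen replicate 1 (-0.91), without either vehicle replicate (-1.15 and -1.34) and under normexp (-0.59). A week later by label they differed by -0.29, with a 95% interval of -1.34 to 0.77.

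Lif, the remaining gp130 cytokine, passed the test in none of the 12 comparisons between groups of the same labelled day. Over the 16 arrays its log2 scaled signal ranged from -4.73 to -2.84, the narrowest range but that of Il24 among members measured above background on every array. The lowest array was vehicle replicate 1 of labelled day 14 and the highest db/db replicate 2 of labelled day 7. The db/db replicates of labelled day 7 lay at -4.43 and -2.84. Leaving out the first gave called differences of 1.04 from WT wounds and of -1.09 with estrogen, and leaving out the second a called difference of 1.40 with vehicle. Lif in the vehicle group was higher on labelled day 7 than on labelled day 14 by 1.21 (adjusted p = 0.148).

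Csf3, the granulocyte growth factor, was well above background on 14 of 16 arrays, with log2 scaled signals from -8.84 to -0.86, the lowest being among the dim ones. Il6, above background on all 16, spanned 7.82. On labelled day 7 Csf3 was -6.10 and -8.73 in the WT group, -0.91 and -0.86 in the db/db group, -8.84 and -5.97 in the db/db + estrogen group and -2.10 and -1.52 in the db/db + vehicle group. WT replicate 2 and estrogen replicate 1 were not well above background, so those groups were each measured on 1 of 2 arrays, and Csf3 entered these comparisons through the groups in which it was high and left them where all 4 arrays had to be well above background. Untreated db/db wounds stood above WT wounds by 6.53 (SE 1.11, adjusted p = 0.00642), a value that rests partly on the dim WT array. Without that array the difference was 5.21 and still called, and it was 5.19 within slide 1.

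Estrogen wounds held less Csf3 than untreated db/db wounds (-6.52, adjusted p = 0.00952) and than vehicle wounds (-5.59, adjusted p = 0.0308), both values resting partly on the dim estrogen array. Without that array they were -5.09 and -4.16 and still called, and within slide 2, where all arrays were above background but that of the WT group, they were -5.12 and -4.45. Vehicle wounds differed from untreated db/db wounds by -0.93, with a 95% interval of -3.41 to 1.55. All groups overlapped on labelled day 14, where Csf3 was -1.39 and -3.00 in the WT group, -2.47 and -1.01 in the db/db group, -1.07 and -3.06 in the db/db + estrogen group and -2.50 and -2.18 in the db/db + vehicle group. The largest difference there was -0.60, of vehicle from untreated db/db wounds.

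**Figure D2:**
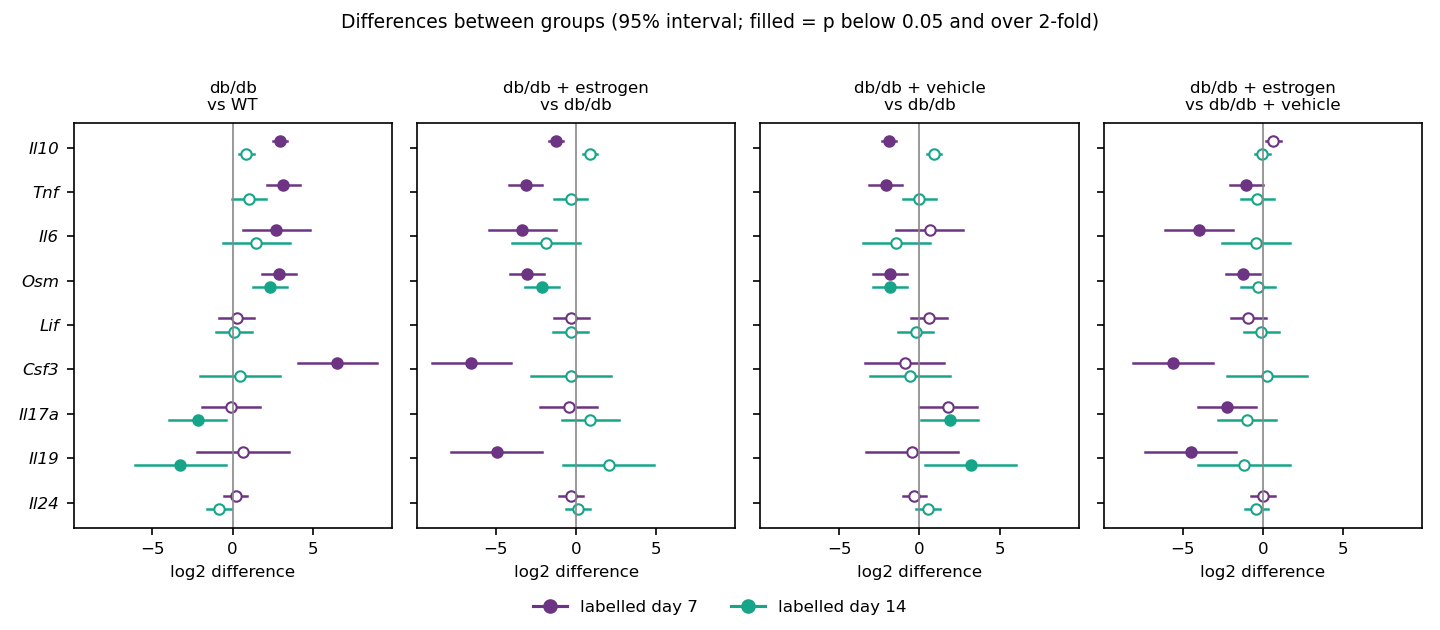
Log2 differences of 9 cytokine genes in 4 comparisons, with the 95% interval of the fit, purple for labelled day 7 and green for labelled day 14, filled where p was below 0.05 and the fold change over 2. On labelled day 7, 5 genes stood higher in db/db than in WT wounds and 6 stood lower with estrogen than without. Of all probes tested, 4193 of 29746 passed in the first comparison, 40.3% of them higher. In the second, 2996 of 30189 passed, 52.6% of them higher. Csf3 in the first, and Csf3 and Il19 in the second, were tested only through the db/db group. Of genes above background on all 4 arrays, 4 of 8 were higher and 4 of 7 lower.

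Il17a, the T cell cytokine, was highest in vehicle wounds on labelled day 7 and in WT and vehicle wounds on labelled day 14. Its log2 scaled signal on labelled day 7 was -4.70 on both WT arrays, -4.23 and -5.36 in the db/db group, -5.75 and -4.78 in the db/db + estrogen group and -3.20 and -2.85 in the db/db + vehicle group. Vehicle arrays stood above all others. Estrogen wounds were lower than vehicle wounds by -2.24 (adjusted p = 0.152, -2.55 and -1.93 within slides), and the call was lost without estrogen replicate 1 (-1.75) or without vehicle replicate 2 (-2.06). Vehicle wounds stood 1.78 above untreated db/db wounds (adjusted p = 0.369), which did not pass, but passed without db/db replicate 1 (2.34) and under normexp (1.19), among others.

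Il17a on labelled day 14 had a log2 scaled signal of -1.87 and -3.88 in the WT group, -4.02 and -6.10 in the db/db group, -3.80 and -4.54 in the db/db + estrogen group and -2.63 and -3.73 in the db/db + vehicle group. The db/db arrays lay below those of the WT and vehicle groups, and the replicates of the WT and db/db groups lay 2.02 and 2.08 apart. Il17a was lower in db/db than in WT wounds by -2.18 (adjusted p = 0.0823), and higher in vehicle than in untreated db/db wounds by 1.88 (adjusted p = 0.263, 2.43 within slide 3). Without db/db replicate 2 these differences were -1.15 and 0.85, without WT replicate 1 the first was -1.18, and without vehicle replicate 1 the second was 1.33, none of them passing the test. Under quantile normalization they were -1.63 and 1.65 and did not pass either, nor did they in fits of only the 4 arrays compared. Estrogen wounds exceeded untreated db/db wounds by 0.89, and by a called 1.93 without db/db replicate 1. No slide of labelled day 14 held both WT and untreated db/db arrays, so no within-slide value exists for that comparison.

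Il19, an Il10-family cytokine acting on keratinocytes, was measured by 2 probes, and values are from the brighter. Its log2 scaled signal on labelled day 7 was -2.66 and -2.32 in the WT group, -1.17 and -2.51 in the db/db group, -7.82 and -5.76 in the db/db + estrogen group and -1.33 and -3.29 in the db/db + vehicle group. Both estrogen arrays lay below all others, and estrogen replicate 1 was not well above background, so that Il19 too left these comparisons under the strictest filter. Estrogen wounds were lower than untreated db/db wounds (-4.95, SE 1.27, adjusted p = 0.0512) and than vehicle wounds (-4.48, adjusted p = 0.0852), both values resting partly on the dim array. Without it they were -3.92, still called, and -3.45, no longer called, and within slide 2 they were -3.25 and -2.47. The other probe gave -3.36 and -2.99, both passing the test.

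The least Il19 was held by untreated db/db wounds on labelled day 14. Its log2 scaled signal was 0.07 and -1.99 in the WT group, -5.01 and -3.42 in the db/db group, -0.29 and -4.10 in the db/db + estrogen group and -1.39 and -0.65 in the db/db + vehicle group. The db/db arrays lay below the WT and vehicle arrays and overlapped those with estrogen. Il19 was lower in db/db than in WT wounds by -3.26 (adjusted p = 0.0992) and higher in vehicle than in untreated db/db wounds by 3.20 (adjusted p = 0.24, 2.83 within slide 3). The first call was lost without db/db replicate 1 (-2.47) or WT replicate 1 (-2.23), and the second without db/db replicate 1 (2.41), vehicle replicate 1 (3.57) or vehicle replicate 2 (2.83). The estrogen replicates lay 3.81 apart. Their difference from untreated db/db wounds was 2.02 with both and a called 3.93 without replicate 2, and their difference from vehicle wounds was -1.18 with both and a called -3.08 without replicate 1.

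Il20 was not well above background on any of the 16 arrays and was not tested. Il24 was above background on all 16 arrays at -5.70 to -4.34 in log2 scaled signal and passed the test in none of the 12 comparisons. Untreated db/db wounds stood below WT wounds in Il24 on labelled day 14 (-0.86, adjusted p = 0.0918), under 2-fold, and beyond 2-fold without db/db replicate 2 (-1.16) or WT replicate 1 (-1.05). Il24, Il20, Il19 and Il10 follow each other on mouse chromosome 1 with 0 protein-coding genes between neighbours. The db/db against WT difference on labelled day 7 was 0.19 for Il24, 0.65 for Il19 and 2.97 for Il10. Osm and Lif are likewise neighbours on chromosome 11, with differences of 2.90 and 0.25 in that comparison.

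Untreated db/db wounds of labelled day 7 held more transcript of 5 of the 10 genes than WT wounds, namely Il10, Tnf, Il6, Osm and Csf3, and less of none. Of all probes tested in that comparison, 5.67% were higher and 8.42% lower. By an adjusted p below 0.05, which 13.2% of probes had, Il10, Tnf, Osm and Csf3 passed, Csf3 being tested only through the db/db group, and 4 of the 8 genes above background on all 4 arrays were higher. The median log2 difference of the 9 genes tested was 2.72 and that of the 8 without Csf3 was 1.68, against -0.05 over all probes tested. For labelled day 14, Osm was higher and Il17a and Il19 were lower, against 2.35% of probes higher and 15.6% lower, and Il10 and Osm passed by adjusted p, as did 19.6% of probes. That comparison set slide 3 against slide 4. With the slide as a fixed block, 1837 of all probes tested passed by adjusted p, in place of 5922. The median of the 9 genes was 0.46, against -0.12 over all probes. Of all calls in these comparisons, 40.3% were higher on labelled day 7 and 13.1% on labelled day 14, and under quantile normalization 52.2% and 32.2%, with the median of all probes on labelled day 14 moving to 0.07.

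Estrogen-treated db/db wounds of labelled day 7 held less transcript of 6 of the 10 genes than untreated db/db wounds, which were Il10, Tnf, Il6, Osm, Csf3 and Il19. Of all probes tested, 4.71% were lower and 5.22% higher. By adjusted p, which 5.84% of probes passed, Il10, Tnf, Osm and Csf3 passed. Csf3 and Il19 were tested only through the db/db group, and 4 of the 7 genes above background on all 4 arrays were lower. Osm was the 1 gene lower on labelled day 14, where 1.36% of probes were lower and 2.56% higher, and none of the 9 genes tested had an adjusted p below 0.05, as 0.0991% of probes did. Without db/db replicate 1 the genes called were Osm and Il17a, and without estrogen replicate 2 Osm and Il19. Higher probes made up 65.3% of all calls on labelled day 14 and 53.5% under quantile normalization.

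Vehicle alone went with differences too. Il10, Tnf and Osm were lower with sesame oil than in untreated db/db wounds of labelled day 7, where 2.3% of probes were lower and 2.52% higher, and Il10 passed by adjusted p, as did 0.154% of probes. In labelled day 14 wounds, Osm was lower and Il17a and Il19 were higher, against 2.2% of probes lower and 5.31% higher, and no member passed by adjusted p, as 0.2% of probes did. Higher probes made up 70.7% of those calls and 59.3% under normexp.

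The comparison of estrogen with its vehicle asks what the hormone adds to the oil. In wounds of labelled day 7, 6 of the 10 genes were lower with estrogen, namely Il6, Tnf, Il17a, Osm, Il19 and Csf3, while 4.32% of probes were lower and 4.66% higher. Il19 and Csf3 were tested only through the vehicle group, and 4 of the 7 genes above background on all 4 arrays were lower. Csf3 had an adjusted p below 0.05, as did 3.05% of probes. Without estrogen replicate 1 the genes lower were Il6, Tnf and Csf3, and without vehicle replicate 2 they were Il6, Il19 and Csf3, so 3 in each case. Il10 stood 0.66 higher with estrogen, under 2-fold. For labelled day 14 limma called 0 of the 9 genes tested, and 0 had an unadjusted p below 0.05 at any fold, where 0.507% of probes were higher, 0.476% lower and 0% passed by adjusted p. Without estrogen replicate 1 the count was 1, Il19.

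Against WT wounds, the estrogen group of labelled day 7 held 1 gene higher, Il10 (1.73, adjusted p = 0.00143), and 1 lower, Il19 (-4.30, adjusted p = 0.0975), which was tested only through the WT group and rests partly on the dim estrogen array, where 3.64% of probes were higher, 4.49% lower and 4.56% passed by adjusted p. Tnf and Osm differed from WT by 0.01 and -0.16, with 95% intervals of -1.03 to 1.04 and -1.22 to 0.89. The vehicle group of labelled day 7 held 5 genes above WT, of which Il10 (1.07, adjusted p = 0.0138) and Csf3 (5.60, adjusted p = 0.0180) passed by adjusted p, Il10 at 0.62 and 1.53 within slides and Csf3 against a group with 1 dim array, with Il6 at 3.35, Tnf at 1.05 and Osm at 1.08 passing at the unadjusted p alone. There 3.91% of probes were higher, 6.38% lower and 8.22% passed by adjusted p. In wounds of labelled day 14, Il10 was above WT in both treated groups (1.75 with estrogen and 1.77 with vehicle, adjusted p = 0.00101 and 0.000856), and no other member passed. Higher probes there were 2.51% with estrogen and 2.54% with vehicle, lower ones 10.8% in each, and 11.8% and 13.2% passed by adjusted p.

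Each group was also compared between its labelled days. In the WT group Il6 (-3.67, adjusted p = 0.232), Il17a (-1.82, adjusted p = 0.382) and Csf3 (-5.22, adjusted p = 0.196) were lower on labelled day 7 than on labelled day 14, where 2.38% of probes were higher, 1.93% lower and 0.0166% passed by adjusted p. In the db/db group Il10 (2.51, adjusted p = 0.000545) and Tnf were higher on labelled day 7 and Il6 lower (-2.43, adjusted p = 0.123), where 11.2% of probes were higher, 1.37% lower and 12.2% passed by adjusted p. In the estrogen group Il6, Osm (-1.34, adjusted p = 0.0904), Il19 (-4.60, adjusted p = 0.0444) and Csf3 (-5.34, adjusted p = 0.0177) were lower on labelled day 7, where 10.8% of probes were higher, 3.05% lower and 12.2% passed by adjusted p. The values of Csf3 in the WT group and of Csf3 and Il19 in the estrogen group rest partly on dim arrays. These genes were tested there only through labelled day 14, where they were high, so their adjusted p is not independent of the filter. The other Il19 probe, above background on all 4 estrogen arrays, gave -3.08 (adjusted p = 0.0903). In the vehicle group Lif was the 1 gene that passed, where 9.3% of probes were higher, 2.43% lower and 10.7% passed by adjusted p.

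Of 14 receptor genes of the cytokines, 1 was higher and 1 lower in db/db than in WT wounds on labelled day 7, with a median of 0.13, near the 5.67% of all probes higher and 8.42% lower. These were Il17ra, the shared chain for Il17 cytokines, at 1.02 (adjusted p = 0.0259), and Il17rc, its partner chain, at -1.25 (adjusted p = 0.0142). Compared with untreated db/db wounds, Il20ra, a chain of the Il19, Il20 and Il24 receptors, was higher with estrogen by 2.51 (adjusted p = 0.0431) and Lifr, the Lif receptor, by 1.24 (adjusted p = 0.0158). Tnfrsf1b, a Tnf receptor of immune cells, was lower by -1.01 (adjusted p = 0.0314). These are named from the 14 receptor genes, and 5.22% of all probes were higher and 4.71% lower in that comparison. Il20ra stood at -2.17 and -2.30 in the db/db group and at 0.15 and 0.39 with estrogen, without overlap. Csf3r, the Csf3 receptor, differed by -0.32 between db/db and WT wounds of labelled day 7 and was lower on labelled day 14 by -1.37 (adjusted p = 0.0394). With vehicle, 3 of 14 were higher on labelled day 7 and 0 lower, where 2.52% of all probes were higher and 2.3% lower, and estrogen against vehicle gave 1 higher and 1 lower, near the 4.66% and 4.32% of all probes.

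Among 23 signal carriers and brakes, 4 were higher in db/db than in WT wounds on labelled day 7 and 5 were lower with estrogen than in untreated db/db wounds, with no member in the opposite direction and medians of 0.35 and -0.57. Of all probes, 5.67% were higher in the first comparison and 4.71% lower in the second. Socs3, the STAT3-induced inhibitor of gp130 signalling, stood at 3.31 and 3.58 in the WT group, 5.11 and 4.75 in the db/db group, 2.01 and 2.64 with estrogen and 4.49 and 4.22 with vehicle. Its arrays did not overlap between any of these groups. Socs3 was higher in db/db than in WT wounds by 1.48 (adjusted p = 0.00600), lower with estrogen than in untreated db/db wounds by -2.61 (adjusted p = 0.000761) and lower with estrogen than with vehicle by -2.03 (adjusted p = 0.00530). Tnfaip3 (A20), an NF-kB-induced brake on Tnf signalling, was higher by 1.08 in db/db than in WT wounds (adjusted p = 0.0229) and lower by -2.03 with estrogen (adjusted p = 0.00269). Nfkbie, an inhibitor of NF-kB, was higher by 1.62 and lower by -1.94 in those comparisons (adjusted p = 0.00884 and 0.00583), and Tnip1, a partner of Tnfaip3, was higher by 1.05 in the first (adjusted p = 0.00458). Bcl3, an atypical member of the family of NF-kB inhibitors, and Jak2, a kinase of cytokine receptors, were the other members lower with estrogen, at -1.37 and -1.02. Stat3 itself differed by -0.02 and -0.41 and did not pass.

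For labelled day 14, 3 of the 23 were higher in db/db than in WT wounds and 0 lower, where 2.35% of all probes were higher and 15.6% lower. They were Dusp1, a phosphatase of MAP kinases, at 1.55 (adjusted p = 0.0106), Zfp36, which destabilizes Tnf mRNA, at 1.80 (adjusted p = 0.0171), and Tnfaip3 at 1.38 (adjusted p = 0.00670). Estrogen against untreated db/db wounds gave 0 of the 23 in limma, with 1, Zc3h12a, at an unadjusted p below 0.05 and under 2-fold (0.76), where 2.56% of all probes were higher and 1.36% lower.

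**Figure D3:**
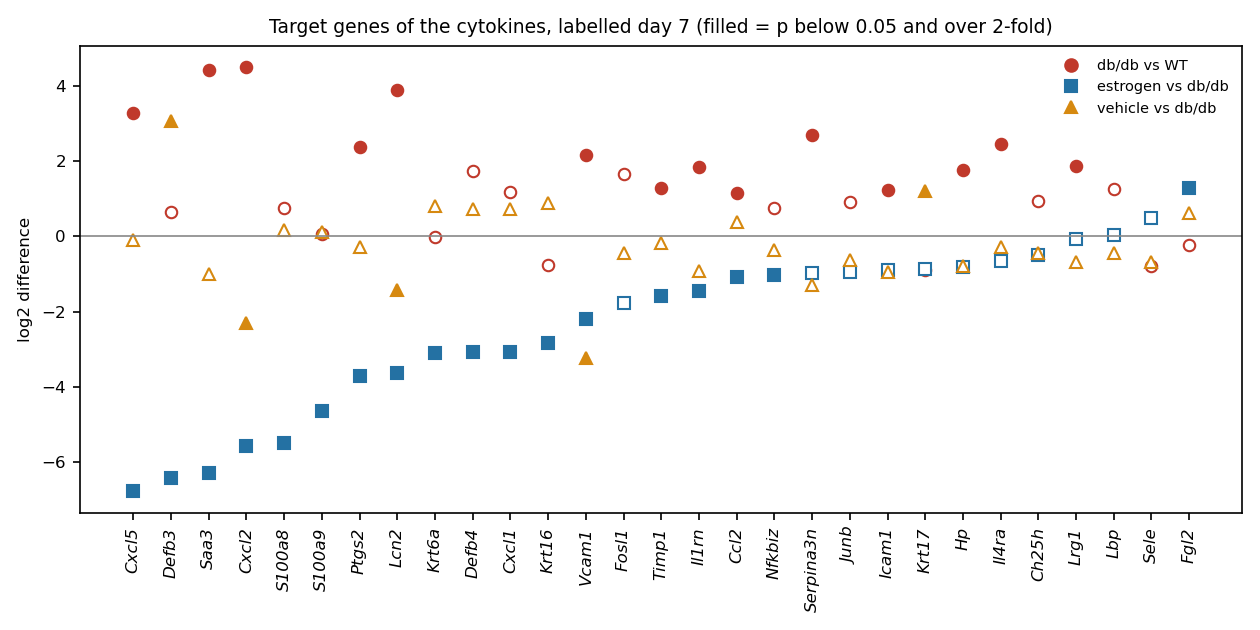
Log2 differences on labelled day 7 for 29 target genes of the cytokines, ordered by the difference of estrogen from db/db wounds, with circles for db/db against WT, squares for estrogen against db/db and triangles for vehicle against db/db, filled where p was below 0.05 and the fold change over 2. Estrogen squares lie at -6.78 for Cxcl5 and -6.28 for Saa3, where vehicle triangles lie at -0.09 and -0.99, and the squares of Defb3 and Defb4 rest on signals not well above background.

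Of 30 genes known as targets of these cytokines in skin and immune cells, 29 were tested on labelled day 7, Ccl20 being dim. In db/db against WT wounds 14 were higher and 0 lower, with a median of 1.25, where 5.67% of all probes were higher and 8.42% lower. Estrogen against untreated db/db wounds gave 17 lower and 1 higher, with a median of -1.59, against 4.71% and 5.22% of probes. Vehicle gave 3 lower and 2 higher, with a median of -0.37, against 2.3% and 2.52%. Estrogen against vehicle gave 15 lower and 1 higher, which was Vcam1 (1.05, adjusted p = 0.202), against 4.32% and 4.66% of probes. Defb3 and Defb4 in both estrogen comparisons and Sele in those with vehicle were tested only through the group in which they were high. Of targets above background on all 4 arrays, 15 of 27 were lower with estrogen than in untreated db/db wounds (median -1.44) and 13 of 26 lower than with vehicle. Defb4 was likewise dim in WT wounds, and 14 of 28 were higher in db/db than in WT wounds without it. These comparisons share arrays and are given side by side.

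Saa3, an acute-phase protein induced by inflammatory cytokines, stood at 4.99 and 2.26 in the WT group, 7.81 and 8.26 in the db/db group, 0.38 and 3.14 with estrogen and 6.82 and 7.26 with vehicle on labelled day 7. Estrogen arrays lay below those of both other db/db groups and overlapped the WT arrays, and the difference from untreated db/db wounds was -6.28 (adjusted p = 0.00539). Cxcl2, a neutrophil-attracting chemokine, was higher in db/db than in WT wounds by 4.51 (adjusted p = 0.0126) and lower with estrogen by -5.56 (adjusted p = 0.00743). Cxcl5, another such chemokine, was lower with estrogen by -6.78 (adjusted p = 0.00961). Ptgs2, the inducible cyclooxygenase, was lower by -3.71 (adjusted p = 0.0212), and Lcn2, a siderophore-binding protein, by -3.64 (adjusted p = 0.00246). Vcam1, an endothelial adhesion molecule, was lower by -2.19 with estrogen (adjusted p = 0.0174) and by -3.24 with vehicle (adjusted p = 0.0302).

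Several targets were lower with estrogen while their db/db against WT difference did not pass. S100a8 and S100a9, the calprotectin subunits, differed by 0.75 and 0.06 between db/db and WT wounds and by -5.49 and -4.65 with estrogen (adjusted p = 0.00053 and 0.00144). Krt16 and Krt6a, keratins of activated epidermis, were lower with estrogen by -2.82 (adjusted p = 0.00358) and -3.09 (adjusted p = 0.0538). Defb3, an antimicrobial peptide, was not well above background on either estrogen array and was at least 19.0-fold lower than in untreated db/db wounds (adjusted p = 0.00214) and at least 158.9-fold lower than with vehicle (adjusted p = 0.00119), the dim group being set, per array, at the lowest signal well above background. Defb3 entered those comparisons only through the groups in which it was high, so its adjusted p is not independent of the filter and the bounds alone are the measurement. Fgl2, a fibrinogen-like protein of immune cells, was the gene higher with estrogen, by 1.29 (adjusted p = 0.0473).

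Fewer target genes passed on labelled day 14. In db/db against WT wounds 6 of 29 were higher, among them Cxcl1, a neutrophil-attracting chemokine, at 1.95 (adjusted p = 0.0467) and Vcam1 at 1.44 (adjusted p = 0.0413), and 2 were lower, Krt17 at -1.74 (adjusted p = 0.0260) and Krt16 at -1.14 (adjusted p = 0.0615), against 2.35% of probes higher and 15.6% lower. Compared with untreated db/db wounds 6 were lower and 3 higher with estrogen, none of them by adjusted p, against 1.36% and 2.56% of probes. Estrogen against vehicle gave 0 of 29 in limma, and 0 at an unadjusted p below 0.05 at any fold, where 0.507% of all probes were higher and 0.476% lower.

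Other cytokines of the same families had named probes for 20 of 22 genes. In wounds of labelled day 7, 3 of 18 tested were higher in db/db than in WT wounds, and 6 of 18 were lower with estrogen than in untreated db/db wounds, against 5.67% and 4.71% of all probes. Of the 15 above background on all 4 arrays, 3 were higher and 5 lower in these comparisons, the others being Csf2, Il17c and Il23a. Tnfsf11 (RANKL), a Tnf-family ligand, stood at -4.90 and -5.06 in the WT group, 0.26 and -1.36 in the db/db group, -6.68 and -6.06 with estrogen and -3.35 and -1.73 with vehicle. Its db/db and vehicle arrays stood above all WT and estrogen arrays. Tnfsf11 was higher by 4.43 in db/db than in WT wounds (adjusted p = 0.00928) and lower by -5.82 with estrogen (adjusted p = 0.00430). Ebi3, a subunit of Il27 and Il35, was higher by 1.47 (adjusted p = 0.0202) and lower by -1.67 with estrogen (adjusted p = 0.0191). Il17f, a relative of Il17a, was lower in db/db than in WT wounds of labelled day 14 by -1.83 (adjusted p = 0.0369) and higher with vehicle than without by 2.16 (adjusted p = 0.118).

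Genes whose log2 scaled signals ran most like those of a member over the 16 arrays were ranked among 16872 genes by Pearson r, as a description over arrays that share groups and slides. For Il10 they were Tlr4 (0.92), Dram2 and Dock10. For Il6 they were Ptgs2 (0.94), Cxcl3 (0.92) and Draxin (0.92), and for Tnf Ceacam10, Cklf and Adora3 (each 0.92). For Osm they were Mmp8, Plaur (each 0.95) and Sgms2 (0.94), and for Csf3 Saa1, Saa3 and Slc39a14 (each 0.96). Il17a ran with Kbtbd8 (0.86), Cldn12 (0.83) and Il17f (0.81), and Il19 with Stc2 (0.90), Cdhr1 and 2610528A11Rik (each 0.88). Lif and Il24 reached no higher than 0.81, the first gene being Nckipsd (0.80) for Lif and Pop1 (0.81) for Il24. Among the members themselves Il6 and Csf3 were most alike (0.85), followed by Osm with Csf3 (0.76) and Il6 with Osm (0.75).

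**Figure D4:**
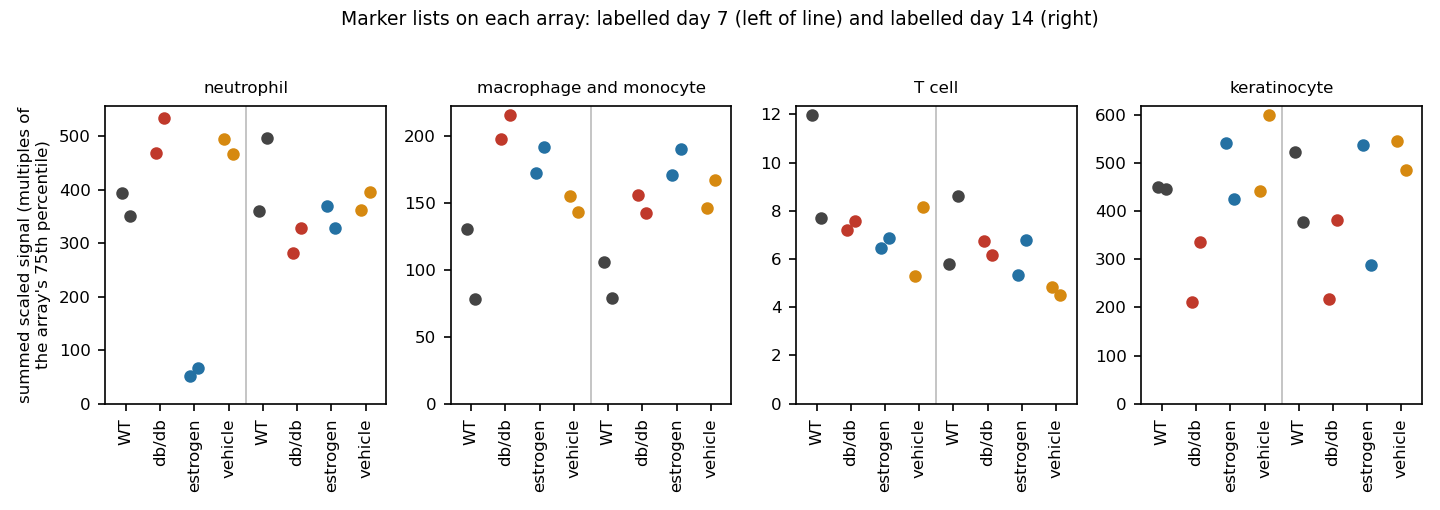
Summed scaled signal of 4 marker lists on each array, in multiples of the array's 75th percentile, with points for arrays in the order of the groups. The neutrophil sum was 51.1 and 66.1 on the estrogen arrays of labelled day 7 and between 282 and 533 on the other 14.

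On labelled day 7, called differences of neutrophil markers had the direction of the called cytokine differences. Of 16 neutrophil markers 15 had a named probe. Of these, on labelled day 7, 12 of 15 were higher in db/db than in WT wounds, 14 were lower with estrogen than in untreated db/db wounds, 7 were lower with vehicle and 10 were lower with estrogen than with vehicle, with none in the opposite direction. Ngp in the comparisons of the WT and estrogen groups, and Retnlg in that of WT, were tested only through the group in which they were high, and of markers above background on all 4 arrays 10 of 13 were higher in db/db than in WT wounds, and 13 of 14 and 10 of 14 lower with estrogen than in untreated db/db and vehicle wounds. The shares of all probes were 5.67% higher in the first comparison and 4.71%, 2.3% and 4.32% lower in the others. Of these 15, Csf3r stands also among the receptors above and S100a8 and S100a9 among the targets. Ltf, a granule protein, stood at -6.19 and -5.06 in the WT group, 3.25 and 1.76 in the db/db group, -5.84 and -6.79 with estrogen and -5.51 and -3.28 with vehicle. Ngp, a granule protein of immature neutrophils, was not well above background on both WT arrays and on estrogen replicate 2. For labelled day 14, 8 of 15 were higher and 1 lower in db/db than in WT wounds, 3 were lower with estrogen and 4 lower with vehicle, against 2.35% of probes higher and 15.6% lower in the first comparison and 1.36% and 2.2% lower in the others. Cytokine genes of that labelled day went both ways, with 1 higher and 2 lower in db/db than in WT wounds. With vehicle 2 of them were higher and 1 lower, and with estrogen 1 was lower.

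The summed scaled signal of the neutrophil list, in multiples of each array's 75th percentile, was 394 and 352 in the WT group, 468 and 533 in the db/db group, 51.1 and 66.1 in the db/db + estrogen group and 495 and 467 in the db/db + vehicle group of labelled day 7. The sums of labelled day 14 were 360 and 497, 282 and 329, 369 and 328, and 362 and 395 in the same order. S100a9 was the brightest gene of the sum on every array but the estrogen arrays of labelled day 7, where Csf3r was. S100a8 and S100a9 are also made by keratinocytes of wounds. The part of neutrophil number in the cytokine differences was not tested.

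Macrophage and monocyte markers, of which 12 of 14 had a probe, were higher for 7 and lower for 2 in db/db than in WT wounds of labelled day 7, and lower for 3 and higher for 1 with estrogen than in untreated db/db wounds. For this and the lists that follow, the shares of all probes were 5.67% higher and 8.42% lower in the first comparison and 5.22% higher and 4.71% lower in the second. Their summed scaled signal on labelled day 7 was 131 and 77.9 in the WT group, 198 and 216 in the db/db group, 172 and 192 with estrogen and 155 and 143 with vehicle, with Csf1r the brightest on every array. Of that labelled day, the db/db arrays were the highest and the WT arrays the lowest. T cell markers summed to between 4.52 and 11.99 over the 16 arrays, Cd4 the brightest, and 5 of 11 tested were lower in db/db than in WT wounds of labelled day 7 with 0 higher. Keratinocyte markers, led by Krt5, were well above background on all arrays at sums of 212 to 600. Their lowest sums were the db/db replicate 1 arrays of both labelled days, at 212 and 218.01. Mast cell markers were higher for 3 of 6 in db/db than in WT wounds of labelled day 7 and lower for 1 with estrogen than in untreated db/db wounds. In the same comparisons keratinocyte markers were lower for 2 of 10 and higher for 3, fibroblast markers higher for 1 of 7 in each, and adipocyte markers higher for 1 of 5 in the first. Medians in these comparisons were -0.40 and -0.05 for endothelial and -0.61 and 1.12 for skeletal muscle markers, 6 genes each. Myh4 went against all other muscle markers, at 1.85 and -3.22, and no gene of either list was called. Pecam1 (CD31), a vessel marker, differed between db/db and WT wounds by -0.26 on labelled day 7 and 0.46 on labelled day 14, and Cdh5, of endothelial junctions, by -0.39 and 0.37, none of which passed the test. The other endothelial markers went both ways on labelled day 14, Tek (0.26) and Esam (0.04) higher and Vwf (-0.57) and Kdr (-0.23) lower, none called. On labelled day 14 Pecam1 also stood at -0.86 with estrogen and -0.86 with vehicle from untreated db/db wounds (adjusted p = 0.273 and 0.138), under 2-fold. The other endothelial markers lay between -0.57 (Cdh5) and 0.17 (Kdr) with estrogen. With vehicle they lay between -0.90 (Cdh5) and -0.35 (Kdr), and none was called in either comparison. The part of these cell types in the cytokine differences was not tested.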

How the data were processed

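The authors labelled RNA with Cy3, hybridized Agilent mouse 4x44K arrays and extracted intensities with Agilent Feature Extraction 11.0.1.1, per the labels. The deposited scanner files give each spot's background-subtracted, spatially detrended intensity and marks for signal well above background. A deposited table of ratio values, linear and relative to each array's 75th percentile, held 34643 of the probes, and 99.4 to 99.8% of them per array equalled the scaled intensities within 0.1% after 1 constant per array. Each array had 44397 spots with 70.1 to 79.0% of probes well above background and 0 saturated, and a 75th percentile of 1091 to 2548. The number of arrays limits the precision.

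Spots of 1 probe were averaged and log2 intensities scaled to the array's 75th percentile. Accessions named 27427 of 39429 probes through RefSeq (69.6%), and the probe of highest mean stood for a gene. limma 3.58.1 in R 4.3.3 fitted 8 group means over 16 arrays. It was tested on simulated data. Labels call the replicates biological without naming animals, so p-values measure the spread between these samples. Every member is named. The members, pathway lists and marker lists were chosen with earlier results of these data known. Slides 1 and 2 held replicates 1 and 2 of labelled day 7, slide 3 held db/db 1 and 2, vehicle 1 and estrogen 1 of labelled day 14, and slide 4 the rest. All 40 printed fold changes checked lay within 1% of the arrays of the opposite day label, and 0 within 1% of the same label. Alternatives were quantile normalization, normexp (offset 50), other filters, a signal floor, the deposited ratios, slide and replicate blocks, fits of 4 arrays and leaving out each array.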

Additional observations from a re-analysis of the deposited data

Results flagged for a closer look

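Il10 differed between the labelled days in its response. The db/db against WT difference on the log2 scale was 2.97 on labelled day 7 and 0.86 on labelled day 14, and the difference between them was 2.11 (SE 0.28, limma, adjusted p = 0.0195). The estrogen against db/db difference was -1.24 on labelled day 7 and 0.89 on labelled day 14, and the difference between them was -2.12 (SE 0.28, limma, adjusted p = 0.0395). Both rest on the same 4 db/db arrays, and both set arrays of 1 scan against arrays of the other. The db/db against WT difference of labelled day 14 also sets slide 3 against slide 4. Of all probes tested, 9.39% and 6.27% had such a difference over 2-fold at an unadjusted p below 0.05. No group had over 2 arrays, so no array was tested as standing apart from its group.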

How the results depend on the processing

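Of 96 recounts of the cytokine genes under alternatives that kept all arrays, 88 stayed within 1.5 times the count reported and 8 did not. With an adjusted p below 0.05 in place of the unadjusted rule, the count fell to 1 for vehicle against db/db and to 1 for estrogen against vehicle on labelled day 7, and to 0 for estrogen against db/db and 0 for vehicle against db/db on labelled day 14. For estrogen against db/db on labelled day 14 it rose from 1 to 2 under normexp, in a fit of only the 4 arrays compared, and with the replicate block, Il6 joining Osm each time. With no filter on dim probes, estrogen against vehicle on labelled day 14 gave 1, which was Il20 below background. The cause of these changes was not tested. With the replicate block the other counts were 5 for db/db against WT, 6 for estrogen against db/db, 4 for vehicle against db/db and 6 for estrogen against vehicle on labelled day 7, and 4 for db/db against WT, 3 for vehicle against db/db and 0 for estrogen against vehicle on labelled day 14. Replicate numbers did not pair the samples, the correlations of same-numbered deviations lying between -0.37 and 0.32. Leaving out 1 array at a time gave counts of 4 to 6, 5 to 7, 3 to 4 and 3 to 5 on labelled day 7 for db/db against WT, estrogen against db/db, vehicle against db/db and estrogen against vehicle, and of 2 to 3, 1 to 2, 2 to 3 and 0 to 1 on labelled day 14. A group then held 1 array, which was assumed to vary like the others. Of 1008 differences of single genes under these alternatives, 945 kept their side of the threshold, 36 lost and 27 gained a call, and 0 called differences turned in direction. Signals near background limit Csf3, Il19 and Il20.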

Other observations

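Replicate 1 exceeded replicate 2 of the same group by large log2 steps for several members at once. In the WT group of labelled day 14 the step was 2.05 for Il19, 2.02 for Il17a, 1.81 for Il6, 1.61 for Csf3 and 1.05 for Osm, and in the estrogen group of labelled day 14 it was 3.81 for Il19, 1.99 for Csf3, 1.29 for Il6, 1.15 for Osm and 1.04 for Tnf. In the estrogen group of labelled day 7 the step ran the other way for Il6 (-3.13), Csf3 (-2.87) and Il19 (-2.06) but not for Tnf (1.15). Replicate 1 of that group was not well above background for Csf3 and Il19, so the sizes of their steps are uncertain. In the same 3 groups Il10 differed by -0.12, -0.09 and -0.15. Over all probes, 11.4%, 9.28% and 2.09% of these groups' probes lay beyond 2-fold between replicates.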
